A study of Rattus norvegicus with 8 samples.

Results

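The mitochondrial ribosomal protein genes (Mrps genes for the small subunit, Mrpl genes for the large subunit) were followed in rat adipose-derived stem cells (ASC) and in adipocytes (AD) differentiated from them. Members were the rows whose symbol begins with Mrps or Mrpl and a number, without pseudogene or placeholder symbols. This gave 70 genes of the 18513 listed in either table: 69 of 14295 in the ASC table and 70 of 18236 in the AD table, with Mrps17 listed for AD alone. RNA came from inguinal ASC of Wistar rats of wild-type genotype after 6 months on a control diet (groups ASC_C and AD_C) or a high-fat sucrose diet (ASC_HFS and AD_HFS). AD cultures had 3 days of induction with insulin (10.0 µg/mL), dexamethasone (5.0 µM) and 3-isobutyl-1-methylxanthine (0.5 mM), then 7 days of maintenance medium that kept the insulin. All 4 groups passed through collagenase digestion of the depot and culture in serum-containing DMEM F12, and the age of the rats is not given in the sources used here. Each group had 2 libraries, and nothing in the labels says that they came from separate animals or cultures, so p-values measure only the spread between these libraries.

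Mitochondria carry their own ribosome, which translates the few proteins still encoded by mitochondrial DNA, all of them parts of the respiratory chain or ATP synthase. The ribosomal RNAs are mitochondrial, whereas every protein of this ribosome is encoded in the nucleus, made in the cytosol and imported. About the core of each subunit, formed by proteins with bacterial counterparts, sits a shell of proteins found only in mitochondria, and adipogenesis is known to be accompanied by an expansion of mitochondrial mass. By these roles, 26 members belonged to the small subunit (16 with a bacterial counterpart, 10 found only in mitochondria) and 43 to the large subunit (27 and 16). Mrps30 and Mrps18a were counted with the large subunit, where they sit despite their symbols. Mrps36 is now assigned to the oxoglutarate dehydrogenase complex and was counted with neither.

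Promoters are shown for members that were lower in ASC_HFS, with no test of a link between promoter and level. RefSeq promoters (build GRCr8, 250 bases before to 50 after the start) were matched by symbol for 55 of 70 members. Shares are per gene symbol, which counts if any of its promoter windows holds the motif. At least 1 of 4 motifs, searched on both strands, was found for 56.4% of the matched members. The share was 20.3% over all 27457 symbols, with windows of the same length. The ETS motif CCGGAAG was in 34.5% of members against 9.63% of all symbols, and the YY1 motif AAGATGGC in 25.5% against 3.62%. GCGCATGC, part of the palindrome bound by nuclear respiratory factor 1, was in 9.09% against 2.77%, and the E-box CACGTG in 10.9% against 7.08%. None of the 4 motifs contains another, and GCGCATGC can overlap its own reverse. Among matched members that were called lower in ASC_HFS, 42.1% of 19 had a match, and 63.9% of the 36 others did, with no test made. The sequences of 60 bases that follow, from members that were lower in ASC_HFS and have a match before the start, show each motif in capitals.
Mrpl17: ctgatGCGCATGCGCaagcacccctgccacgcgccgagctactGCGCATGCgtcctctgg
Mrpl33: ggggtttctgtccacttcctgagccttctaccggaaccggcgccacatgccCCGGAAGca
Mrpl36: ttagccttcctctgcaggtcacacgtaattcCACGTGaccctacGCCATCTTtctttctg
Mrpl30: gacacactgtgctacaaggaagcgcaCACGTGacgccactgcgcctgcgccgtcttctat
They lie at chr1:169575700-169575759 (minus strand) for Mrpl17, chr6:30553988-30554047 (minus strand) for Mrpl33, chr1:31795122-31795181 (minus strand) for Mrpl36 and chr9:47621049-47621108 (plus strand) for Mrpl30. Mrpl17 holds GCGCATGC overlapping its own reverse GCATGCGC and once more closer to the start, Mrpl33 the ETS motif, Mrpl36 an E-box and the reverse of the YY1 motif, and Mrpl30 an E-box.

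Whole reads were recovered from the deposited values. The ASC libraries held 992618 to 7290961 reads and the AD libraries 76083827 to 119555051, so stage and depth go together. The shallowest library, replicate 2 of ASC_HFS, had a median of 14 reads per member, against 121 to 273 in the other ASC libraries and 2231.5 to 3862.5 in AD. There 3 reads, the limit that a count of 0 allows, correspond to 10.9 normalized counts. Every member had reads in every library of the table that lists it. Libraries of a group differed beyond sampling noise. A chi-square per gene (1 under sampling noise alone) was taken over members with at least 20 reads in the pair. Its mean was 112 between the AD_C libraries, 13.7 between ASC_C, 5.05 between ASC_HFS and 4.52 between AD_HFS. It rises with the number of reads, so it does not rank groups of unlike depth by spread. On the log2 deposited scale, members' median deviations from their mean over the stage's libraries were 0.41 and 0.32 in ASC_C and -0.20 and -0.45 in ASC_HFS. In AD they were -0.07 and 0.08 in AD_C and 0.003 and -0.02 in AD_HFS. Adipocyte markers summed to 1.91% to 2.31% of reads in AD and to 0.0967% to 0.455% in ASC, where the low library was replicate 1 of ASC_C. Progenitor markers such as Pdgfra, Thy1, Col1a1, Dcn and Lum were all detected in ASC.

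In undifferentiated ASC, 28 of 69 mitoribosomal genes were lower in HFS and 0 were higher (limma-trend on the deposited values, with a threshold of 0.05 on the p adjusted over the whole table by Benjamini-Hochberg). Over all 14295 genes tested, 9.7% were called lower and 9.41% higher. The median log2 difference of the members was -0.65, against -0.04 over all genes, and it was negative for 66 of 69. As a ratio of normalized counts, the median member in HFS stood at 0.492 of its level in C. Read as a share of all reads over genes listed in both tables, the members summed to 0.356% and 0.323% in the ASC_C libraries and to 0.177% and 0.127% in the ASC_HFS libraries. Both HFS libraries lay below both C libraries. In bulk RNA, fewer cells of a type and less RNA per cell cannot be told apart.

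**Figure D1:**
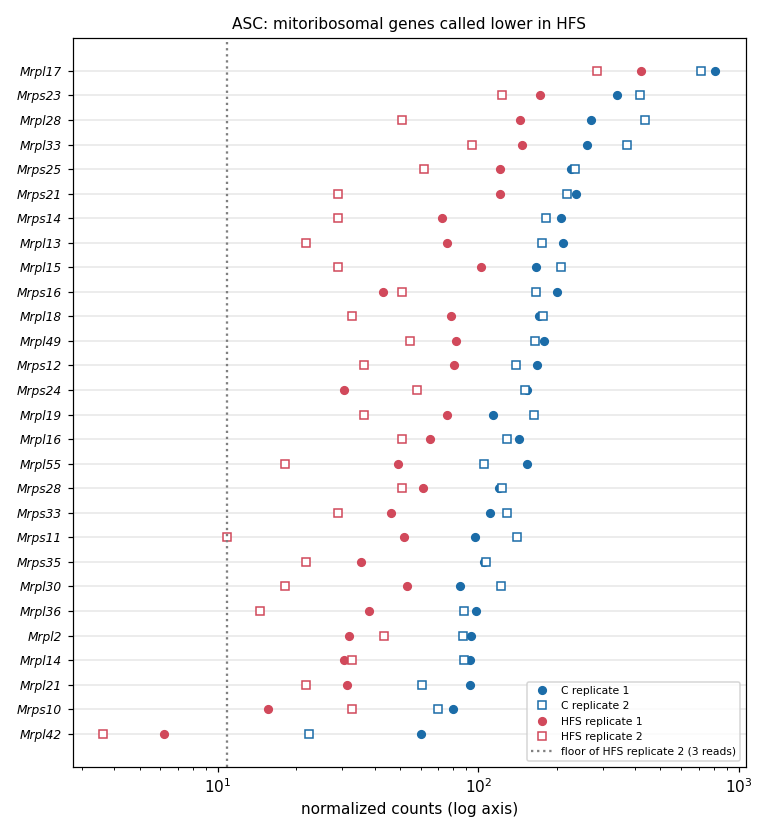
Normalized counts (log axis) of the 28 mitoribosomal genes that were lower in ASC_HFS, 1 row per gene and 1 point per library (filled, replicate 1; open, replicate 2). The HFS points lie left of the C points in every row. The dotted line at 10.9 normalized counts is the read limit of HFS replicate 2 alone. Mrpl42 in both HFS libraries lies left of it, and Mrps11 in replicate 2 lies on it.

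Mrps16 and Mrps14, small subunit genes with a bacterial counterpart, gave the lowest adjusted p of the members. Mrps16 (ENSRNOG00000006898), whose human counterpart is mutated in an inherited deficiency of mitochondrial translation, had 200.1 and 167 normalized counts in C and 43.0 and 50.8 in HFS. Both HFS libraries lay far under both C libraries, 3.91-fold lower on average (log2 difference -1.23, SE 0.22, limma-trend adjusted p = 0.00253). Mrps14 (ENSRNOG00000002569), a core protein of the head of the subunit, had 208 and 182 in C and 72.3 and 29.0 in HFS. The groups did not overlap, although the HFS libraries were spread widely, and the mean was 3.85-fold lower (adjusted p = 0.00405). Mrps24 (ENSRNOG00000011979), the counterpart of a bacterial protein near the mRNA entry, had 154 and 152 in C and 30.6 and 58.0 in HFS. Here replicate 1 was the lower HFS library, and the mean was 3.45-fold lower (adjusted p = 0.00609). Mrps11, another core protein, had 97.3 and 140 in C and 51.8 and 10.9 in HFS, the last resting on 3 reads. Its log2 difference was -1.13 with an SE of 0.28 (adjusted p = 0.0129).

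Of the small subunit proteins that bacteria lack, Mrps35 had 105 and 107 normalized counts in C and 35.5 and 21.8 in HFS. The C libraries were nearly equal and the HFS libraries 3.69-fold lower (log2 difference -1.01, SE 0.22, limma-trend adjusted p = 0.00726). Mrps23, another of these, had 341 and 418 in C and 172 and 123 in HFS. Its groups were clearly apart at a better-counted level, with a mean 2.57-fold lower (adjusted p = 0.00981). Mrps33, the last of these with a full account, had 111 and 129 in C and 46.1 and 29.0 in HFS, 3.20-fold lower without overlap (adjusted p = 0.0102).

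Among large subunit genes, Mrpl13 (ENSRNOG00000004401), with a counterpart in the bacterial subunit, had 211 and 176 normalized counts in C and 75.5 and 21.8 in HFS. The HFS libraries differed from each other by more than the C libraries, yet both were lower, 3.98-fold on average (log2 difference -1.34, SE 0.28, limma-trend adjusted p = 0.00504). Mrpl28 (ENSRNOG00000042720) had 271 and 437 in C and 145 and 50.8 in HFS. On the deposited scale it showed the widest log2 difference of the members, -1.44 with an SE of 0.31 (limma-trend adjusted p = 0.00662). In normalized counts it was 3.63-fold lower, less than the 3.98-fold of Mrpl13. Mrpl18, which in bacteria binds 5S rRNA, had 170 and 177 in C and 78.6 and 32.6 in HFS. Both HFS libraries were lower, 3.12-fold on average (adjusted p = 0.00969). Mrpl55 had 154 and 105 in C and 49.3 and 18.1 in HFS, 3.84-fold lower (adjusted p = 0.00862). Mrpl36, whose bacterial counterpart is among the smallest ribosomal proteins, had 98.2 and 88.3 in C and 38.0 and 14.5 in HFS, 3.55-fold lower (adjusted p = 0.0125). Neither gene's groups overlapped.

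The other 16 called members were Mrpl2, Mrpl14, Mrpl15, Mrpl16, Mrpl17, Mrpl19, Mrpl21, Mrpl30, Mrpl33, Mrpl42, Mrpl49, Mrps10, Mrps12, Mrps21, Mrps25 and Mrps28. Mrpl17 was the best counted of them, with 811 and 715 normalized counts in C and 420 and 286 in HFS (2.16-fold lower, limma-trend adjusted p = 0.0216). Mrpl42 was the least counted, with 60.2 and 22.4 in C and 6.24 and 3.63 in HFS, from 10 reads and 1 read, and no fold is given for it. Of the 41 members not called, 38 had a negative difference. Mrps6 had 95.4 and 87.4 normalized counts in C and 137 and 97.9 in HFS, so that its HFS libraries were the higher ones (log2 difference 0.23, SE 0.23, adjusted p = 0.524). Mrps2 had 103 and 111 in C and 115 and 145 in HFS (0.19, adjusted p = 0.605). Mrps7 had 210 and 103 in C and 154 and 167 in HFS, with both HFS libraries between the C libraries (0.07, adjusted p = 0.879). Mrps6, Mrps2 and Mrps7 are core proteins of the small subunit, and without ASC_C replicate 2 the difference of Mrps7 was -0.29.

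By subunit, 12 of 25 small subunit genes (median log2 difference -0.57) and 16 of 43 large subunit genes (median -0.65) were lower. Of members with a bacterial counterpart 22 of 42 were lower (median -0.74), and of those found only in mitochondria 6 of 26 (median -0.53). In the large subunit these counts were 14 of 27 and 2 of 16 (12.5%), the last near the 9.7% called lower over all genes. All 27 and all 16 had a negative difference. Their median HFS-to-C ratios of normalized counts were 0.429 and 0.533. No test of these differences between subgroups was made. Calls were spread over levels: 14 of 34 above the members' median and 14 of 35 at or below it were lower.

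The groups did not overlap, with HFS lower, for 55 of 69 members, against 32.5% of all genes, and with HFS higher for 2, Mrps6 and Mrps2. HFS replicate 1, the better sequenced of the pair, was by itself below both C libraries for 60 of 69 members, against 40.9% of all genes. HFS replicate 2 was below both for 60 as well, against 44.8% of all genes. The calls rested on all 4 libraries. With any 1 left out, no limma-trend call remained, in the members or over all genes. limma-voom on the recovered reads called 30 members lower with all libraries, against 10.3% of all genes. It called 30 and 36 without ASC_C replicate 1 and 2, against 12.1% and 15.4%. Without ASC_HFS replicate 1 and 2 it called 2 and 8, against 1.49% and 4.24%, so that without replicate 1 the members' share was near the background. Its medians without a library ran from -1.21 to -0.82.

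Several cell type markers moved with the ASC comparison. Cycling cell markers were lower for 10 of 12 genes, and their sum was 0.0629% and 0.0518% of reads in C and 0.0315% and 0.0288% in HFS. Macrophage markers were higher for 10 of 12, at 0.0824% and 0.0925% in C and 0.292% and 0.309% in HFS. Endothelial markers were higher for 7 of 9 (0.0309% and 0.0644%, then 0.132% and 0.130%), epithelial markers for 5 of 6 (0.00422% and 0.00620%, then 0.0246% and 0.0253%) and adipocyte markers for 4 of 9. Progenitor markers were split, with Lum, Pdgfra and Thy1 lower and 4 higher. Of the lymphoid markers, Cd79a and Cd3g were at 0 in both C libraries, and none was called. 1 of 5 muscle markers was higher. The part of these markers in the members' difference was not tested.

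In adipocytes the members did not separate by diet. By limma-trend 0 of 70 were called, with 1 (Mrpl49) at an unadjusted p under 0.05, and limma-voom gave the same counts. Over all 18236 genes, limma-trend called 1.34% in either direction, and 2540 had an unadjusted p under 0.05. The median log2 difference was -0.02, with 39 of 70 negative, and single members ranged from -0.51 to 0.30. The summed share of reads was 0.242% and 0.266% in the AD_C libraries and 0.249% and 0.244% in AD_HFS, so the HFS pair lay between the C pair. Groups did not overlap for 22 members (8 higher, 14 lower), against 47.7% of all genes.

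**Figure D2:**
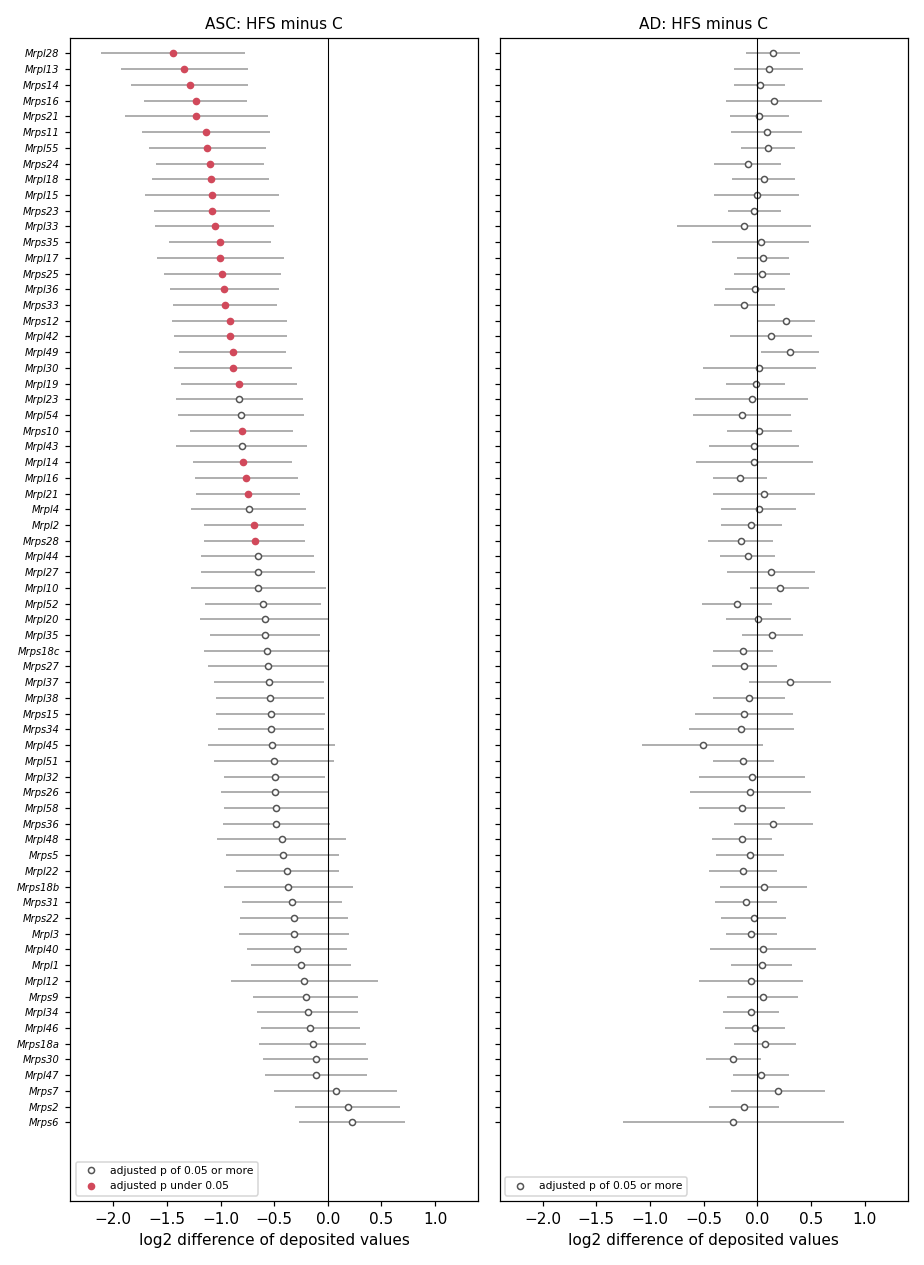
Log2 difference HFS minus C of the deposited values, with its 95% confidence interval from limma, for the 69 members in both tables, ordered by the ASC difference; filled points were called. In ASC 66 of 69 points lie left of 0, while in AD the points scatter about 0 between -0.51 and 0.30.

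Mrpl49, found only in mitochondria, had 4436 and 3920 normalized counts in AD_C and 5158 and 5225 in AD_HFS. Its HFS libraries were the higher ones, at 1.24 times the C mean (log2 difference 0.30, SE 0.10, limma-trend adjusted p = 0.306). Mrpl45, which lies at the exit of the peptide tunnel facing the inner membrane, had 12519 and 8080 in C and 7099 and 6906 in HFS. It gave the most negative difference, -0.51 with an interval from -1.08 to 0.06 (adjusted p = 0.403), and replicate 1 of AD_C stood apart from the other 3 libraries. Mrps17, the member listed for AD alone and a core small subunit protein, had 49.4 and 50.3 in C and 35.0 and 37.1 in HFS (ratio 0.723, adjusted p = 0.558). Its HFS libraries were the lower ones.

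Other members with the smallest unadjusted p showed HFS-to-C ratios of 0.850 for Mrps30, 0.889 for Mrpl16, 0.869 for Mrpl52 and 0.895 for Mrpl48, none of them called (limma-trend adjusted p from 0.418 to 0.612). On the other side stood Mrps12, a core protein of the decoding site, at 1.22, Mrpl37 at 1.23, Mrpl10, a protein of the stalk base, at 1.16, and Mrpl28 and Mrpl35 each at 1.11 (adjusted p from 0.370 to 0.628). As a ratio, Mrps6 had the widest gap between the AD_C libraries, with 3820 and 1562 normalized counts in the AD_C libraries against 2066 and 2089 in AD_HFS. With 1 AD_C library left out, the spread came from the AD_HFS pair alone, and the lone AD_C library was assumed to vary as little as that pair. Without AD_C replicate 1, 27 members were lower and 6 higher, among 3333 genes lower and 3773 higher of all tested. Without AD_C replicate 2, 10 members were lower and 27 higher, among 4812 and 5018 of all genes. With either AD_HFS library left out, 0 members and 0 of all genes were called.

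The difference between the diet effects of both stages was tested with limma-voom on recovered reads of all 8 libraries. For 6 of 69 members the HFS-minus-C difference was greater in AD than in ASC (Benjamini-Hochberg adjusted p under 0.05), and for 0 it was smaller. Over 14018 genes, 4.2% were called in that direction. The median member contrast was 0.78 on the log2 scale, against -0.01 over all genes. It was positive for 64 of 69 members, beside 6981 of all 14018 genes. An unadjusted p under 0.05 by limma-voom was reached by 28 of 69 members, beside 4185 of the 14018. Cycling cell markers went with the contrast: 6 of 12 were called higher by limma-voom, 11 of 12 were positive and their median was 3.81. Their sum in AD was 0.0111% and 0.0150% of reads over shared genes in C and 0.0216% and 0.0217% in HFS. Macrophage markers, called for 0 of 12 in the contrast, summed in AD to 0.0370% and 0.0758% in C and 0.368% and 0.369% in HFS. The part of these markers in the members' contrast was not tested.

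Mrps24 had 2375 and 2583 normalized counts in AD_C and 2491 and 2151 in AD_HFS, and a contrast of 1.86 (SE 0.40, limma-voom adjusted p = 0.0304). Mrps16 had 2466 and 3439.8 in AD_C and 3279 and 3254 in AD_HFS, with a contrast of 2.04 (SE 0.45, adjusted p = 0.0317). Both sets of AD libraries overlapped, unlike those of ASC. Mrpl49 had 179 and 165 in ASC_C and 81.7 and 54.4 in ASC_HFS, and with its higher AD_HFS libraries gave 1.41 (SE 0.32, adjusted p = 0.0357). Mrps14 had 3267 and 3126 in AD_C and 3234 and 3261 in AD_HFS, and gave 1.64 (SE 0.39, adjusted p = 0.0389). Mrps23 had 4518 and 4192 in AD_C and 4318 and 4218 in AD_HFS, and gave 1.13 (SE 0.29, adjusted p = 0.0474). The AD groups of both overlapped. Mrps10, a core small subunit protein, had 79.7 and 69.9 in ASC_C, 15.6 and 32.6 in ASC_HFS, 1851 and 2155 in AD_C and 2049.6 and 2004 in AD_HFS. It was lower in ASC_HFS, overlapped in AD and gave 1.82 (SE 0.48, adjusted p = 0.0490). The contrast had a median of 0.74 in small and 0.78 in large subunit genes, with 22 of 25 and 41 of 43 positive. No test between the subunits was made, and small subunit genes made up 5 of the 6 called. With 1 library left out, the count above 0 was 0 without ASC_C replicate 1 or any HFS library, beside 0.00713% to 0.899% of all genes. It was 1 (Mrpl42) without ASC_C replicate 2 (2.68% of all genes), 8 without AD_C replicate 1 (6.87%), and 22, with 1 member below 0, without AD_C replicate 2 (11.3%).

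Levels by stage were set as rpm (reads scaled to an equal total per library) over the genes in both tables, without a test, because the tables were normalized separately and stage goes with depth and table. From ASC to AD the members' summed share went from 0.339% ± 0.024 to 0.254% ± 0.017 (SD, n = 2) in C and from 0.152% ± 0.036 to 0.246% ± 0.003 in HFS. The order was thus ASC_C highest and ASC_HFS lowest, with the AD groups in between and not separated from each other. The median AD-to-ASC ratio of a member was 0.803 in C and 1.86 in HFS, beside 0.898 and 1.145 over all genes. In C the AD libraries were lower without overlap for 35 of 69 members, against 38.9% of all genes, and higher for 10, against 31.4%. In HFS they were lower for 2, against 32.8%, and higher for 50, against 47.9%. All these ratios share each diet's ASC libraries with the diet comparison.

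**Figure D3:**
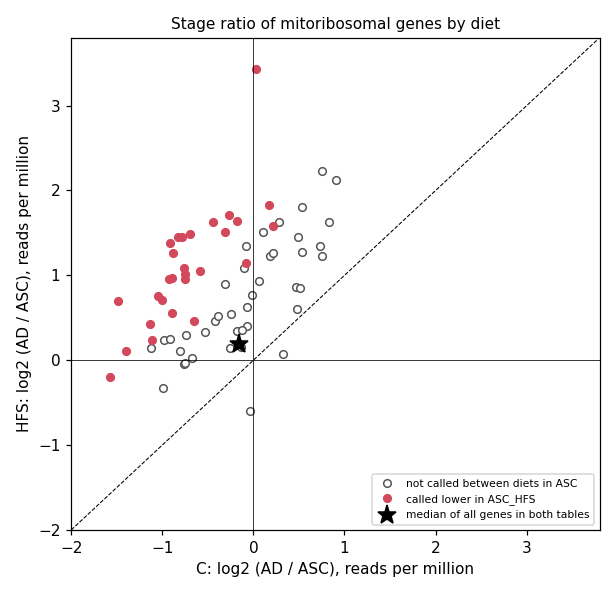
Log2 ratio of AD to ASC (rpm) in C (horizontal) and HFS (vertical) for 69 members, filled where called lower in ASC_HFS; the star marks the median of all 14018 genes and the dashed line equal ratios. Most members lie above the line, with ratio medians of 0.803 in C and 1.86 in HFS.

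Over both diets, the 4 AD libraries lay above the 4 ASC libraries for 8 members, against 22.4% of all genes, and below them for 1, against 19.1%. The 8 were Mrpl2, Mrpl4, Mrpl34, Mrpl38, Mrpl40, Mrps9, Mrps22 and Mrps31. Mrpl4, which lines the peptide exit tunnel, had 44.3 and 24.8 rpm in ASC_C, 8.55 and 16.1 in ASC_HFS, 51.6 and 64.6 in AD_C, and 58.7 and 56.6 in AD_HFS. Its AD level was 1.68 times the ASC level in C and 4.67 times in HFS. Mrpl40, found only in mitochondria, had 7.49 and 4.53 rpm in ASC_C, 2.22 and 3.02 in ASC_HFS, 9.06 and 13.4 in AD_C, and 11.1 and 11.8 in AD_HFS. Its ASC_HFS level lay near the limit of 3.02 rpm in the shallow library. With a library left out the count of members higher in AD can only rise, as for any gene.

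Mrpl1, part of the mobile stalk of the large subunit, was the member lower in all AD libraries, with 24.3 and 21.7 rpm in ASC_C, 12.5 and 17.1 in ASC_HFS and 11.4 to 12.1 in AD. Mrpl33 had 84.5 and 113 rpm in ASC_C, 40.4 and 26.2 in ASC_HFS, 25.0 and 41.6 in AD_C, and 29.8 and 28.5 in AD_HFS. Its C ratio of 0.336 was the lowest among the members, and the AD libraries overlapped those of ASC_HFS. Mrps23 had 110 and 128 rpm in ASC_C, 43.5 to 47.0 in AD and a C ratio of 0.380, while in HFS its ratio was 1.08. Mrpl42 had 19.5 and 6.86 rpm in ASC_C, 1.71 and 1.01 in ASC_HFS and 12.2 to 16.0 in AD, and no ratio is given in HFS for the same lack of reads. The count of members lower in AD can likewise only rise with a library left out.

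**Figure D4:**
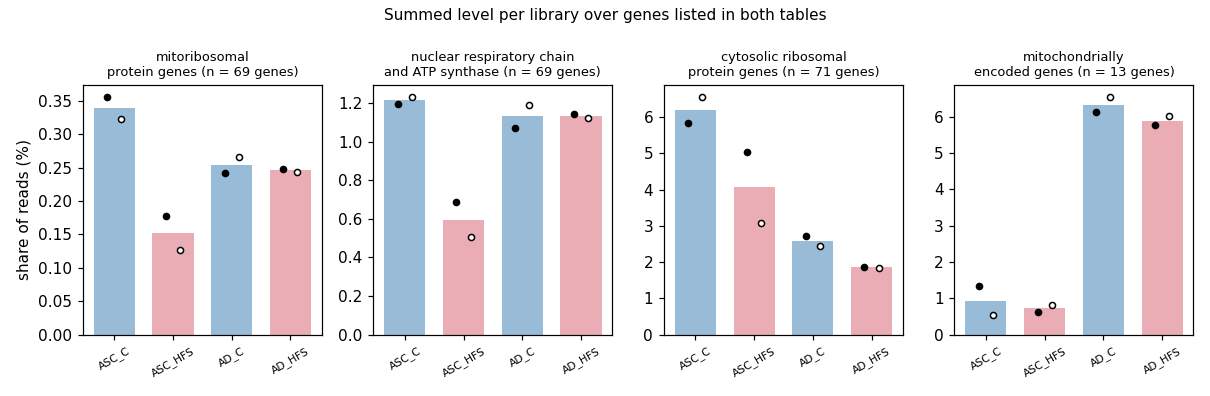
Share of reads (%) over genes listed in both tables, summed over 4 gene sets, by group; bars are means of 2 libraries and points the libraries (filled, replicate 1; open, replicate 2). The members and the nuclear respiratory chain genes are lowest in ASC_HFS, cytosolic ribosomal protein genes are higher in ASC than in AD, and mitochondrially encoded genes are far higher in AD.

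Gene sets with related products were placed beside the members, with no test between sets. Nuclear genes of the respiratory chain and ATP synthase, whose partners the mitoribosome makes, were lower in ASC_HFS for 29 of 69. Over all genes, 9.7% were called lower in ASC_HFS. The set's median log2 difference on the deposited scale was -0.81, and 0 of 73 were called in AD. In ASC its median HFS-to-C ratio of normalized counts was 0.490, beside 0.492 for the members. Genes of the cytosolic ribosome, which makes the mitoribosomal proteins, were lower in ASC_HFS for 3 of 71 (median -0.37). In AD, limma-trend called 0 of 83 cytosolic genes, with 42 at an unadjusted p under 0.05, beside 2540 of all 18236 genes. Their median was -0.38, while the mitoribosomal median there was -0.02. limma-trend called 0 of the 13 mitochondrially encoded genes, the templates this ribosome reads, in either stage, and their median log2 difference in ASC was 0.01. limma-voom called 2 of them lower in ASC, beside 10.3% of all genes. In both stages the limma-voom calls of these genes changed in number and direction with 1 library left out. Mitochondrially encoded genes took 1.34% and 0.534% of reads in ASC_C, 0.620% and 0.822% in ASC_HFS and 5.76% to 6.55% in AD. Their AD-to-ASC median ratio was 6.38 in C and 8.69 in HFS, beside 0.803 and 1.86 for the mitoribosomal genes.

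**Figure D5:**
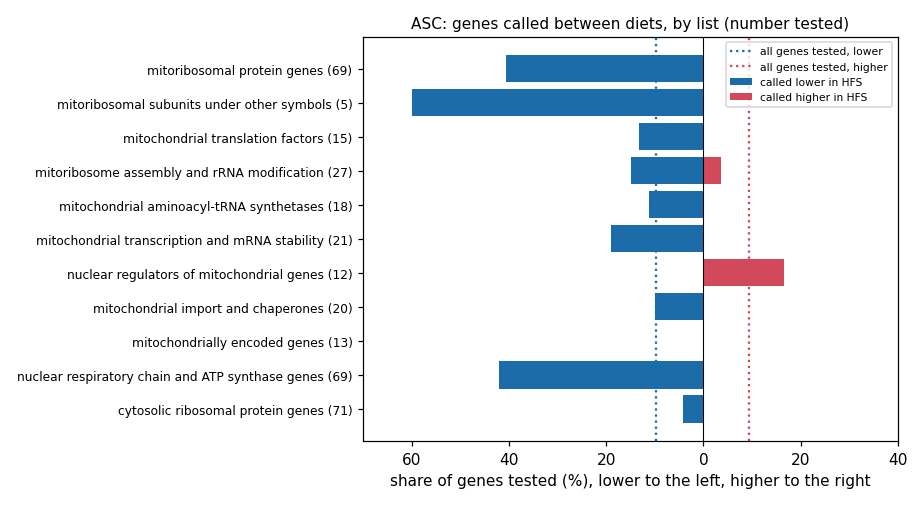
Share of genes tested (%) that were lower (left) or higher (right) in ASC_HFS by limma-trend, for the members and 10 gene lists, with the number tested; dotted lines give 9.7% and 9.41% over all genes. The members and the respiratory chain genes stand at 40.6% and 42.0%, and no mitochondrially encoded gene was called.

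Partners of the mitoribosome were taken from lists of its pathway, and in AD limma-trend called 0 of each. Of 5 listed genes, subunits that carry other symbols and the insertase Oxa1l (not called), 3 were lower in ASC_HFS, beside 9.7% of all genes. Chchd1 had 212 and 447 normalized counts in C and 115 and 87.0 in HFS (3.26-fold lower, log2 difference -1.21, limma-trend adjusted p = 0.0116), without overlap. Ptcd3 was 2.49-fold lower (adjusted p = 0.0343) and Dap3, a GTP-binding protein of the small subunit head, 1.98-fold lower (adjusted p = 0.0417). The rows with lower-case symbols, outside the members' definition, were mrpl11 (183 ± 69.6 in C and 32.8 ± 25.9 in HFS, SD, n = 2, limma-trend adjusted p = 0.0031), mrpl24 (237 ± 52.5 and 101 ± 19.2, adjusted p = 0.0216) and mrpl9 (186 ± 8.15 and 191 ± 1.86, adjusted p = 0.949). mrpl11 and mrpl24 were lower and mrpl9 was not called.

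Of 15 translation factors, 2 (13.3%) were lower and all 15 had a negative difference in ASC. Over all genes, 9.7% were called lower and 9.41% higher. Guf1, the elongation factor 4 homologue, had 77.8 and 97.7 normalized counts in C and 34.3 and 36.3 in HFS (2.49-fold lower, limma-trend adjusted p = 0.0389). Mtrf1, a release factor, was called at 28.3 ± 7.10 in C and 1.87 ± 2.65 in HFS (SD, n = 2). Its HFS replicate 1 had 3.74, above that library's read limit of 1.87, and replicate 2 had 0, where the limit was 10.9. Of 27 assembly and rRNA modification genes, 4 were lower and 1 higher. Rbfa, which matures the small subunit, had 95.4 and 147 in C and 19.3 and 7.25 in HFS, both HFS libraries far lower (log2 difference -1.52, adjusted p = 0.00093). Trub2, a pseudouridine synthase, was 2.45-fold lower (adjusted p = 0.0286), Ybey and Gtpbp10 were lower from few reads, and Afg3l2, a protease that processes Mrpl32, was 2.01-fold higher (adjusted p = 0.0314).

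Of 18 mitochondrial aminoacyl-tRNA synthetases 2 (11.1%) were lower, near the 9.7% called lower over all genes. These were Iars2, by 2.74-fold, and Hars2, by 2.05-fold (limma-trend adjusted p = 0.0163 and 0.0367). Of 21 genes listed for mitochondrial transcription and mRNA stability, a list that also holds DNA maintenance genes such as Ssbp1, 4 were lower. They were Fastk (3.93-fold, limma-trend adjusted p = 0.00273), Ssbp1 (4.53-fold, adjusted p = 0.019), Hsd17b10 (2.12-fold, adjusted p = 0.0241) and Slirp (2.67-fold, adjusted p = 0.0323). Tfam, which packages and transcribes mitochondrial DNA, had 145 ± 26.2 in C and 110 ± 34.5 in HFS (SD, n = 2) and was not called (adjusted p = 0.447). Of 20 import and chaperone genes 2 (10%) were lower, again near the share over all genes. These were Timm13 (2.25-fold, adjusted p = 0.028) and Timm44 (2.24-fold, adjusted p = 0.0386). Of 12 nuclear regulators of mitochondrial genes 2 were higher and 0 lower, beside 9.41% higher over all genes. Myc had 245 and 201 normalized counts in C and 450.2 and 638 in HFS (2.44-fold higher, adjusted p = 0.0133), and Pprc1, a coactivator of the PGC1 family, had 144 and 148 in C and 291 and 369.9 in HFS (2.27-fold higher, adjusted p = 0.0186). Nrf1 (97.1 ± 22.5 and 164 ± 65.8, adjusted p = 0.201) and Gabpa (87.1 ± 11.8 and 115 ± 36.9, adjusted p = 0.502), an ETS factor, were not called.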

How the data were processed

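RNA of 8 libraries (4 groups of 2) was sequenced as 50 bp paired-end reads, per the labels' protocols, which give both polyA RNA and an rRNA depletion kit. Per the submitters' processing notes, FastQC, STAR, featureCounts and DESeq2 were used with mRatBN7.2 and rn7. Versions, strand setting and annotation are not given in the sources used here, so reads of overlapping genes cannot be told apart. The values the authors deposited, 1 table per stage, are a signal: the antilog (base 2) of DESeq2's variance-stabilized counts, read from the values, with lowest values of 34.7 (ASC) and 107 (AD). Inverting this gave whole reads for 100% of values (tolerance 1e-06) and the normalized counts printed here. The deposited scale shrinks log2 differences of low genes, which is why folds are ratios of mean normalized counts. Blank gene symbols were kept as genes under their identifiers.

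Diet was tested within each table with limma-trend on log2(value + 1) in R 4.3.3 with limma 3.58.1, mean value of at least 10 (no gene removed), two-sided, Benjamini-Hochberg over all genes. The difference between stages was tested with limma-voom on recovered reads of 14018 shared genes (at least 10 reads, median-of-ratios library sizes). Folds are against group means, and floors are 3 reads per library, covering counting error only. Named members were those with the smallest adjusted p (12 in ASC), filled to 6 per direction by p, the 3 highest and lowest stage log2 ratios (mean over diets), the contrasts called, and up to 4 called genes per list. Genes outside this rule (Mrpl17, Mrps6 in AD, Tfam, Nrf1, Gabpa, the lower-case symbols, the other called or non-overlapping members) were named after their values were seen. The members and lists were chosen with earlier results of these data known. Alternatives were pseudocounts of 0.5 and 5, other filters and scalings, limma-voom, replicate blocks and each library left out. On simulated counts in which 2-fold and 4-fold changes were set, limma-trend recovered 10% and 88% in ASC (1 of 14095 unchanged genes called) and 87% and 100% in AD. For the stage contrast limma-voom recovered 14.4% and 80.2%. The simulated counts had the same dispersion for all genes and both groups of a stage, and the changed genes excluded the lowest levels. The real groups differed in spread, so these rates need not hold for them. Loading and plots used pandas 2.3.3, numpy 2.4.6, matplotlib 3.10.9 and Python 3.11.15. The labels do not link same-numbered libraries.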

Additional observations from a re-analysis of the deposited data

Results flagged for a closer look

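The diet effect differed between stages for 6 members by limma-voom (contrast of the AD and ASC differences on the log2 scale). These were Mrps24 (1.86, adjusted p = 0.0304), Mrps16 (2.04, adjusted p = 0.0317), Mrpl49 (1.41, adjusted p = 0.0357), Mrps14 (1.64, adjusted p = 0.0389), Mrps23 (1.13, adjusted p = 0.0474) and Mrps10 (1.82, adjusted p = 0.0490). In each the ASC libraries were separated by diet, and of the 6 only Mrpl49 had AD libraries that did not overlap, with HFS higher. Mrps10 was not called by limma-trend on the deposited values (adjusted p = 0.065), and none of the 6 was called with an HFS library or an ASC_C library left out. ASC and AD libraries differed in depth throughout, and its part in these contrasts was not tested.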

How the results depend on the processing

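Of the 28 members called lower in ASC, 28 were also called with upper-quartile scaling, all 8 libraries in 1 fit and limma-voom, and 25 with quantile normalization. These fits called 31, 34, 30 and 25 members, beside 10.8%, 14.2%, 10.3% and 8.67% of all genes lower. The 28 also stayed with no filter, which is the same fit, since the filter removed no gene. Pseudocounts of 0.5 and 5 kept them too, but change the log scale little on values of at least 34.7. A mean value of at least 200 left 18 members tested and 7 called, fewer because fewer were tested, beside 14.7% of all genes tested there called lower. The median ASC difference was -0.94 by limma-voom. With 1 library left out, limma-trend called 0 to 0 members in ASC and its medians ran from -0.75 to -0.53, while limma-voom called 2 to 36 with medians of -0.82, -1.10, -1.21 and -0.84 without ASC_C replicate 1 and 2 and ASC_HFS replicate 1 and 2. In AD the counts ran from 0 to 27 lower and 0 to 27 higher with medians of -0.088 to 0.070. limma-voom gave 27 lower and 7 higher without AD_C replicate 1, and 10 lower and 27 higher without AD_C replicate 2 (median 0.071). By limma-trend on deposited values the stage contrast was called for 13 members, beside 7.53% of all genes above 0 and 4.93% below. These 13 held 5 of the 6, without Mrps10 (adjusted p = 0.065). With total reads as library sizes limma-voom called 17 (all 6), beside 7.7% of all genes above 0. There the members' median was 1.05 as that of all genes moved to 0.26 (all genes: 1079 called higher and 416 lower, against 589 and 716). Leaving out a library gave 0 to 22 called higher, 0 to 1 lower and medians of 0.65 to 1.15. Members with all AD above all ASC libraries were 8 to 20 and below 1 to 4. Mrps7 in ASC reversed without ASC_C replicate 2, to -0.29 in a range of -0.29 to 0.44 (limma-voom -0.42). The causes were not tested. With a replicate block, 33 members were lower in ASC, beside 10.8% of all genes. In AD 0 were called, beside 0.34% of all genes lower and 3.28% higher. The stage contrast with this block kept 4, beside 4.25% of all genes above 0 (not Mrps23 and Mrps10, limma-voom adjusted p = 0.0606 and 0.0596). Deviations of same-numbered libraries correlated at -0.12 in ASC and 0.0014 in AD. The crossed pairing, added after seeing the data, gave 35 members lower in ASC, beside 13.3% of all genes. Depth limits the ASC results: replicate 2 of ASC_HFS held a median of 14 reads per member.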
